A study of Mus musculus with 12 samples.

Results

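Meis1 and Meis2 encode homeodomain transcription factors of the TALE (three-amino-acid-loop-extension) class, and their loci were followed in maps of H3K27ac, an acetylated histone mark of active promoters and enhancers. The pair was chosen with measured values of these hearts already known: the rule takes the regions called in each heart from 50 kb before to 50 kb after the gene body of Meis1 and of Meis2 (mm10), and the values below that compare the genotypes at these genes are therefore a description, with no test. The members are 2 of 21887 protein-coding genes. Of the 79293 regions obtained by joining the lists of all hearts at an overlap of 1 bp, 32 lay in the Meis1 window and 33 in the Meis2 window.

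ChIP-seq had been run on whole hearts of newborn mice at postnatal day 0, each heart being a biological replicate. The WT group (n = 3, hearts 1, 3 and 4) was compared with edKO (n = 3, hearts 1, 3 and 6), in which Rxra and Rxrb, genes of retinoid X receptors, were deleted in cardiomyocytes only. The Cre driver of the edKO, the alleles carried by the WT hearts and the litters are not stated in the sources at hand. Fibroblasts, endothelial cells and other cells of the edKO hearts keep both receptor genes, so fewer marked cells of a type and less mark per cell cannot be told apart.

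Meis proteins bind DNA together with Pbx and Hox proteins, and the TALE class also holds the Pknox, Tgif, Irx and Mkx factors. In the mouse heart, Meis1 is known for driving the exit of newborn cardiomyocytes from the cell cycle, through the cyclin-dependent kinase inhibitors, and Meis2 is known for its role in cranial and cardiac neural crest and in the formation of the outflow tract. Retinoic acid, which acts through retinoid X receptors and their partners, is a known inducer of Meis genes in embryos and cultured cells.

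Both genes lie on the minus strand. The Meis1 gene body is at chr11:18880428-19019651 (139 kb) and that of Meis2 at chr2:115861264-116067537 (206 kb). The 300 bases from 250 before to 50 after each listed start are printed here because they carried the mark in every heart, at both genes. They come from RefSeq (GRCm38.p6), at chr11:19018920-19019219 for Meis1 and chr2:116064570-116064869 for Meis2, minus strand, and capitals mark the CCAAT letters on either strand and the first transcribed base.
Meis1: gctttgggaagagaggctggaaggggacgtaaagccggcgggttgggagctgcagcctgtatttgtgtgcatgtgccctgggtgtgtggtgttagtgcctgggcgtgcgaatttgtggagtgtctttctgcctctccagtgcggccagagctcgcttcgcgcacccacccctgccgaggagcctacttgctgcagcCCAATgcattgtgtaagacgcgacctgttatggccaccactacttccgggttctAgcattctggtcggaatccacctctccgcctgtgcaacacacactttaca
Meis2: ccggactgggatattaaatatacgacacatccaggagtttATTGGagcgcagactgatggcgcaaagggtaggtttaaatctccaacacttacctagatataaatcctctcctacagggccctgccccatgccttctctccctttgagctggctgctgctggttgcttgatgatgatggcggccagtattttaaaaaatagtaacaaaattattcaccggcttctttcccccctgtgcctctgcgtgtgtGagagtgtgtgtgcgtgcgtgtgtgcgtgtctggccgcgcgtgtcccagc

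The CCAAT pentamer began at base -54 from the start on the gene's strand in Meis1. In Meis2 the pentamer lay on the other strand, seen as ATTGG from base -210 on the gene's own strand. It occurred in 37.4% of 32851 RefSeq promoters of the same length. Neither promoter held the Meis hexamer TGACAG (19.2% of promoters), the nuclear receptor half-site AGGTCA (16.3%) or the Hox-Pbx motif TGATNNAT (8.85%) on either strand. The reverse complement of AGGTCA begins with the same letters, TGAC, as the Meis hexamer. The search covers these windows alone. The Meis1 promoter was 58.3% G and C with 15 CpG dinucleotides, and the Meis2 promoter 51% with 13, against medians of 52.7% and 7 over all promoters.

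The length called as H3K27ac was lower at Meis2 in the edKO hearts and overlapped between the genotypes at Meis1. The Meis2 window held 30319, 30382 and 26448 bp of called regions in WT 1, 3 and 4, against 21030, 15736 and 16399 bp in edKO 1, 3 and 6. Every edKO heart was below every WT heart, with means of 29049.7 ± 2253 bp in WT and 17721.7 ± 2884 bp in edKO (SD, n = 3 each). In share of the window this was 9.48 ± 0.736% against 5.79 ± 0.942%. On the log2(bp + 200) scale, centred per heart, the Meis2 difference was -0.61 (SE 0.10), where the median over all loci tested was 0.03.

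The Meis1 window held 44976, 43603 and 40750 bp in WT, against 42092, 35066 and 38655 in edKO. The groups overlapped, since edKO 1 lay above WT 4, and edKO 3 had the shortest length. Means were 43109.7 ± 2156 bp and 38604.3 ± 3513 bp (SD, n = 3 each), or 18.0 ± 0.901% and 16.1 ± 1.47% of the window. The centred log2 difference at Meis1 was -0.06 (SE 0.08).

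**Figure D1:**
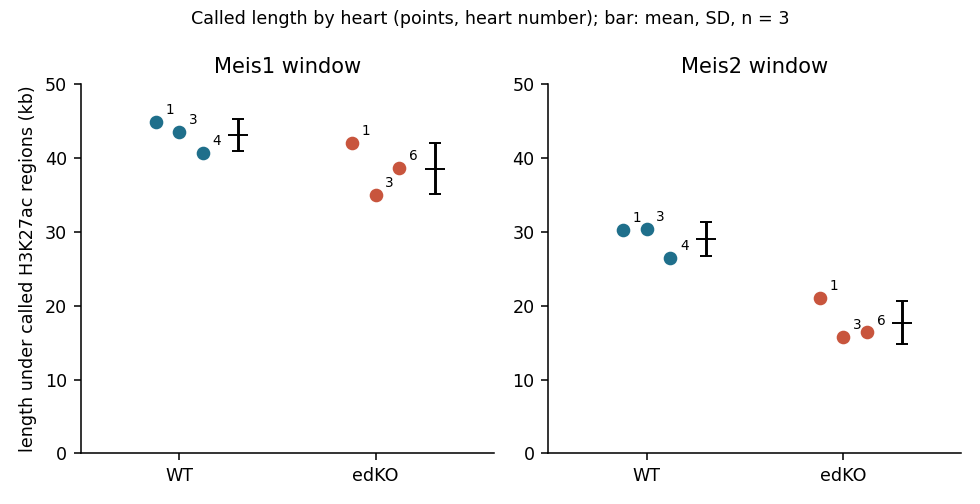
Length under called H3K27ac regions (kb) in the Meis1 and Meis2 windows, 1 point per heart with its number, and the mean with its SD (n = 3 per genotype). All edKO points lie below all WT points for Meis2 (21030 bp at most against 26448 bp at least), and the groups overlap for Meis1.

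The lists themselves differed in size. They held 57977 to 66329 regions over 59.1 to 68.3 Mb in WT and 47972 to 67708 regions over 47.9 to 66.6 Mb in edKO, edKO 3 covering the least. Read depth per heart is unknown, and a region that is not in a list was not called, which does not show that the mark is absent. Over the 16759 loci with enough called length, limma with Benjamini-Hochberg adjustment called 31 lower in edKO (0.185%) and 0 higher (0%), with 836 lower and 337 higher at an unadjusted p under 0.05. Neither Meis1 nor Meis2 was among the 31, but the pair was chosen on this contrast, so that is no test of either gene and nothing is read from it. The count of 31 ranged from 5 (without WT 3 or WT 4) to 35 with 1 heart left out. All edKO values lay below all WT values at 5.85% of loci and above them at 6.99%, and since the pair was chosen on this contrast nothing is read from the place of Meis2 in that share.

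Per Mb covered in its own list, each WT heart gave nearly the same length to Meis2, 450.0, 445.1 and 447.7 bp, and the edKO hearts gave 315.9, 328.7 and 261.8 bp. All edKO values lay below all WT values. The lists do not order alike by both sizes: edKO 1 covered 66.6 Mb but held the fewest regions (47972), with a smallest width of 324 bp, and the part of list size in the Meis2 values was not tested. For Meis1 the same measure was 667.5, 638.8 and 689.8 bp in WT against 632.3, 732.5 and 617.2 in edKO, with overlap. The ratio of Meis2 to Meis1 length, taken within a heart, was 0.674, 0.697 and 0.649 in WT and 0.4996, 0.449 and 0.424 in edKO. No edKO heart reached the lowest WT ratio.

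Meis1 ranked high among all loci in each heart. The share of its window under called regions stood at percentile 95.4, 94.4 and 94.1 of the tested loci in the WT hearts and 93.7, 95.4 and 92.5 in the edKO hearts. Meis2 stood at percentile 77.6, 76.3 and 74.8 in WT and at 61.8, 62.8 and 54.2 in edKO. Meis1 was thus the more densely covered gene in every heart, and the highest Meis2 rank in edKO lay under the lowest in WT.

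The mark at the Meis2 start was present in all hearts. The region over the listed start (chr2:116060004-116065852, with the start at 116064619) was 5796, 5834 and 5805 bp wide in WT and 5685, 5686 and 5706 bp in edKO. The edKO widths were all below the WT widths, although by little. Within each list its fold enrichment stood at percentile 92.7, 96.1 and 94.8 in WT and 89.7, 88.7 and 93.7 in edKO. Percentiles from lists of different length cannot show a change or its absence. In edKO 1 the stretch was called as 2 regions, the wider one of 4387 bp, and in the other hearts as 1.

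Upstream of the start, where the gene G630016G05Rik, a long non-coding RNA at chr2:116067225-116085911, overlaps the window, 3 further regions were called in all hearts. The nearest (chr2:116065985-116068782), which reaches over the outer end of the Meis2 gene body, measured 2657, 2783 and 2560 bp in WT against 2342, 2353 and 2538 in edKO. The next (chr2:116068859-116072556) measured 3425, 3698 and 2725 bp in WT against 2194, 2422 and 1536 in edKO. The farthest (chr2:116075402-116076530) measured 1014, 988 and 1085 bp in WT against 886, 915 and 712 in edKO. All 3 were narrower in every edKO heart than in any WT heart. A second long non-coding gene, 2810405F15Rik at chr2:116074548-116076096, overlaps the farthest region. Histone marks carry no strand, so the mark of Meis2 and those of the non-coding genes cannot be told apart here.

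**Figure D2:**
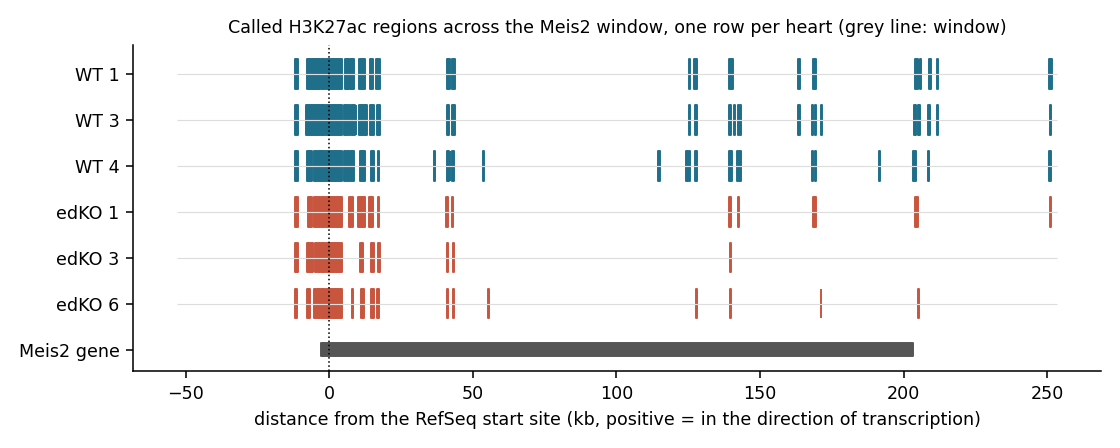
Called H3K27ac regions across the Meis2 window, 1 row per heart, against distance from the RefSeq start in kb (positive in the direction of transcription), with the gene body in grey. Calls around the start are present in all hearts, and calls farther along the gene are fewer in the edKO rows, with 16, 10 and 15 joined regions called in all there against 21, 25 and 25 in WT.

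Most of the length that differed at Meis2 lay away from the start. Joined regions that touched the 5 kb on either side of the start summed to 11878, 12315 and 11090 bp in WT against 10221, 10461 and 9780 in edKO. Those elsewhere inside the gene summed to 13343, 14261 and 12609 bp in WT against 8526, 4360 and 5677 in edKO. Those beyond the 3′ end summed to 4084, 2818 and 1664 bp in WT against 1397, 0 and 230 in edKO. The genotypes did not overlap in any of these places, and the mean differences were -1607 bp around the start, -7217 bp inside the gene and -2313 bp beyond its 3′ end. The start thereby held 40.5 ± 1.38% of the called Meis2 length in WT and 58.2 ± 9.02% in edKO (SD, n = 3 each).

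Region by region, 10 of the 33 Meis2 regions were called in all 6 hearts, as were 35.8% of all joined regions. Of these, 6 were narrower in every edKO heart than in every WT heart and 0 were wider, where 5.99% and 1.2% of the 28396 regions called in all hearts genome-wide had these patterns. At 20 regions more WT than edKO hearts had a call, at 1 region the reverse held, and at 12 the numbers were equal. Over all joined regions, 36.1% had a call in more WT than edKO hearts and 18.1% the reverse. The 1 region (chr2:116009003-116009384) was called in edKO 6 alone. The 10 regions called in all hearts summed to 21135, 20695 and 17893 bp in WT against 17288, 15736 and 14565 in edKO, with WT 4 the lowest of its group and still above edKO 1.

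At Meis2, 2 regions had a call in WT 1, 3 and 4 but none in edKO, a pattern of 1.08% of all joined regions, and 0 showed the opposite pattern, which 0.0719% of all joined regions had. One lay inside the gene (chr2:115938998-115939468, 125 kb downstream of the start) and measured 318, 454 and 267 bp in the WT hearts. The other lay beyond the 3′ end (chr2:115855264-115856334) and measured 620, 651 and 360 bp. Its calls in WT 1 and WT 4 shared no base and were joined only through the call in WT 3. The widths of the first were near the smallest in the WT lists (265, 250 and 226 bp), and those of the second lay below the lists' medians (766, 698 and 533 bp). Within the WT lists the fold enrichment stood at percentile 16.9, 9.56 and 4.56 for the first and 1.83, 45.4 and 61.2 for the second. The count rested on single hearts: it was 1 without WT 3, 4 without WT 1, 5 without WT 4 and 6 without edKO 1.

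Several longer Meis2 regions were reduced in edKO without being absent from all of its hearts. A region 7.09 kb into the gene (chr2:116055538-116059521) measured 2692, 3061 and 2317 bp in WT against 1219, 0 and 534 in edKO, so that edKO 3 had no call and the others less than any WT heart. At 128 kb (chr2:115936490-115937545) the WT hearts had 939, 529 and 882 bp, while edKO 6 had 431 bp and the other edKO hearts no call. At 140 kb (chr2:115923962-115925530) all hearts had a call, with 1569, 808 and 838 bp in WT against 692, 570 and 364 in edKO. These regions were picked for mention after their values were seen.

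Next to the 3′ end of Meis2 (chr2:115859120-115861254), calls measured 1583, 1572 and 698 bp in WT against 1069, 0 and 230 in edKO. These groups overlapped, since edKO 1 lay above WT 4. At some regions inside the gene the widths also overlapped, although the means were lower in edKO. At 14.8 kb (chr2:116048999-116050700) the widths were 967, 1419 and 1098 bp in WT against 1176, 976 and 1225 in edKO (means 1161 and 1126 bp). At 11.5 kb (chr2:116051628-116054663) they were 2071, 2463 and 1892 bp in WT against 2646, 1219 and 905 in edKO (means 2142 and 1590 bp). There edKO 1 had the widest call of any heart, while edKO 3 and edKO 6 lay below every WT heart.

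**Figure D3:**
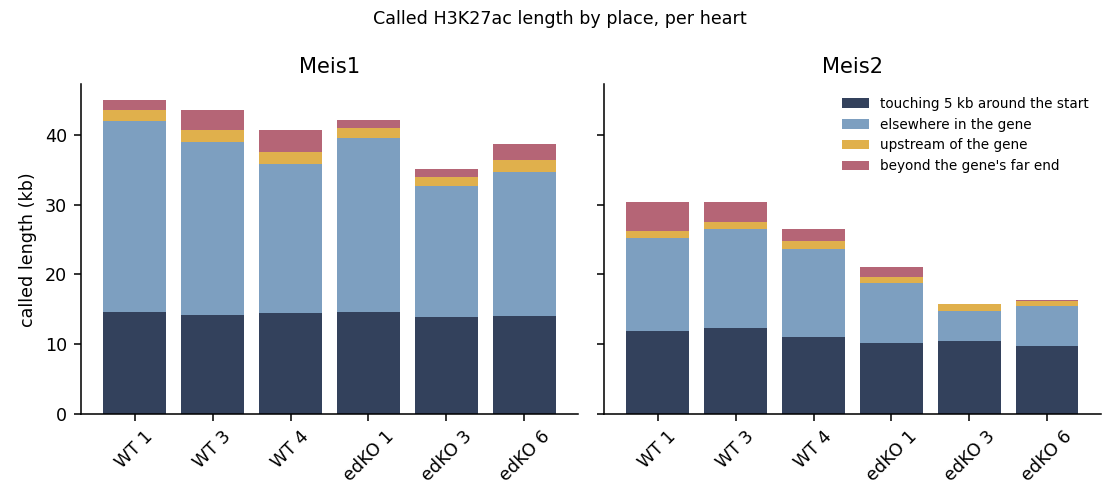
Called H3K27ac length (kb) per heart, stacked by place, for Meis1 and Meis2. The Meis2 segment elsewhere in the gene is 12609 bp or more in each WT heart and 8526 bp or less in each edKO heart, while the Meis1 segment at the start is nearly level across hearts.

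Meis1 carried its widest region over the start. The region chr11:19007106-19021927, which holds the start at 19018969 and runs into the gene, measured 14313, 14222 and 14519 bp in WT against 14552, 13919 and 14054 in edKO. The groups overlapped, and edKO 1 had the greatest length of all hearts; the stretch was called as 1 region in WT 1, WT 3 and edKO 1 and as 2 or 3 in the others. Its fold enrichment stood at percentile 96.9, 98.6 and 98.7 within the WT lists and 99.6, 99.5 and 99.7 within the edKO lists. All edKO percentiles were above all WT percentiles, but the lists differ in length, so no change is read from them. The gene Gm16141, a long non-coding RNA at chr11:18989652-19018330, lies inside Meis1 under much of this region, and the mark cannot be divided between them.

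Inside the Meis1 gene, away from the start, 27410, 24727 and 21288 bp were called in WT and 24937, 18808 and 20649 bp in edKO. The widest of these regions (chr11:18944317-18950314, 71.7 kb into the gene) measured 5099, 4948 and 4688 bp in WT against 5317, 4417 and 4745 in edKO. Upstream of the gene, 1560, 1704 and 1687 bp were called in WT and 1483, 1285 and 1645 bp in edKO. Beyond the 3′ end the lengths were 1420, 2950 and 3256 bp in WT against 1120, 1054 and 2307 in edKO. The genotypes overlapped in each of these places, although the means were lower in edKO (24475 ± 3069 bp against 21464.7 ± 3145 bp inside the gene, SD, n = 3 each).

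Of the 32 Meis1 regions, 12 were called in all 6 hearts, and at each of these the widths of the genotypes overlapped. No Meis1 region was called in all hearts of one genotype and in none of the other (0 in each direction), with 1 such WT region when edKO 6 was left out. There were 12 regions called in a single WT heart and 2 called in a single edKO heart, where 19.8% and 12.4% of all joined regions had these patterns. More WT than edKO hearts had a call at 16 Meis1 regions, fewer at 2 and equal numbers at 14. Of all joined regions, 36.1% were called in more WT hearts and 18.1% in more edKO hearts. The 12 regions called in all hearts summed to 40397, 40122 and 37124 bp in WT against 41160, 33307 and 36709 in edKO. The groups overlapped, with edKO 1 the highest heart. The other Meis1 regions summed to 4579, 3481 and 3626 bp in WT against 932, 1759 and 1946 in edKO. In this part, itself set by which hearts had a call, every edKO heart was below every WT heart, as a description with no test. No share over all loci is set beside that split.

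**Figure D4:**
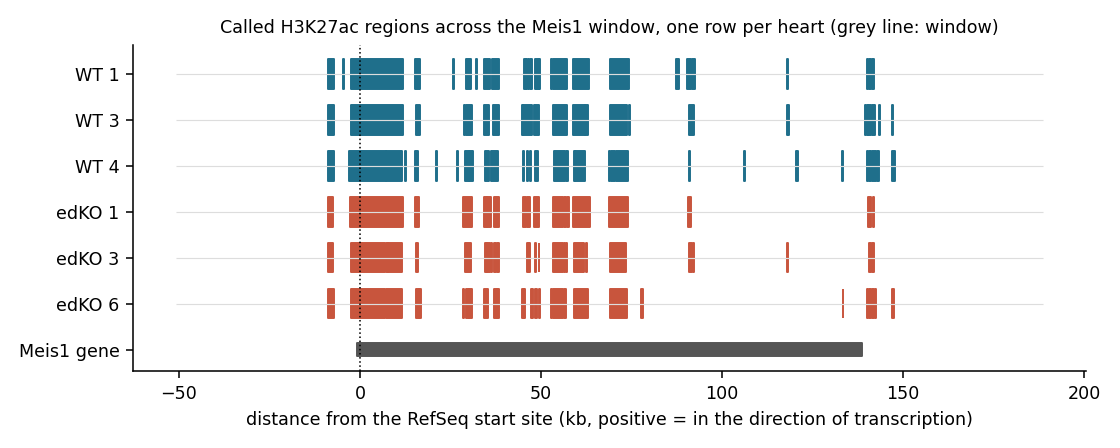
Called H3K27ac regions across the Meis1 window, 1 row per heart, against distance from the RefSeq start in kb (positive in the direction of transcription), with the gene body in grey. The block over the start recurs in every heart, and 12 of 32 joined regions were called in all 6.

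Few regions lay near the edges of the windows. Just inside, the last Meis2 region on the 3′ side (chr2:115812980-115814177, 47.1 kb from the gene) measured 1198, 345 and 606 bp in WT against 328, 0 and 0 in edKO. Just outside, at 51.7 kb (chr2:115807898-115809564), the values were 1667, 1054 and 0 bp in WT against 0, 335 and 0 in edKO. For Meis1 the nearest region outside the window lay 71.7 kb from the gene and was called in 1 WT heart.

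The other TALE genes were tested in the fit over all loci, as a list drawn up with earlier results of these hearts known. Of 16 such genes, 14 had enough called length, and limma called 0 of them lower and 0 higher in edKO after Benjamini-Hochberg adjustment over all loci (background 0.185% and 0%). Their median centred log2 difference was 0.09, against 0.03 over all loci, with 4 genes below 0 and 10 above, of which Pbx2, Pbx3 and Irx4 fell below 0 without centring. Mkx, a factor of tendon, had 0 bp in every heart, and Irx6 was called in some hearts of each genotype but fell under the minimum mean of 500 bp.

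Pbx proteins are the DNA-binding partners of Meis. Pbx2 had 18138, 19820 and 18573 bp in WT against 21729, 15409 and 18342 in edKO, a log2 difference of 0.07 (SE 0.08, limma adjusted p = 0.907). The Pbx2 groups overlapped, and the same held for Pbx3 (0.05, SE 0.09, limma adjusted p = 0.943) and Pbx4 (-0.04, SE 0.10, limma adjusted p = 0.9497).

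Meis3, the third Meis gene, had little called length, at 4600, 5406 and 4499 bp in WT against 5144, 3482 and 4591 in edKO, a log2 difference of -0.04 (SE 0.11, limma adjusted p = 0.961). Its groups overlapped. Pknox1 and Pknox2, the TALE genes closest to Meis in sequence, had log2 differences of 0.19 (SE 0.11) and 0.19 (SE 0.19), and the repressors Tgif1 and Tgif2 had 0.12 (SE 0.11) and 0.14 (SE 0.10), all with overlapping groups and limma adjusted p-values of 0.831 to 0.888.

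Among the Iroquois genes, Irx3, which in the heart is known for its role in the fast conduction system, had 7476, 7685 and 7241 bp in WT against 5619, 3596 and 4662 in edKO. The highest edKO heart was below the lowest WT heart, with a log2 difference of -0.58 (SE 0.10) that did not pass limma's test (adjusted p = 0.104). The Irx3 difference was -0.014 (SE 0.11, limma adjusted p = 0.982) with 10 kb on each side and 0.14 with the gene body alone. Irx4, a ventricular factor, had 25104, 22680 and 28316 bp in WT against 26979, 18908 and 26277 in edKO, with overlap (log2 0.02, SE 0.13). For Irx1, Irx2 and Irx5 the log2 differences were 0.32 (SE 0.19), 0.17 (SE 0.32) and 0.23 (SE 0.14), also with overlap, and limma's adjusted p was between 0.830 and 0.983 for these 4 genes.

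**Figure D5:**
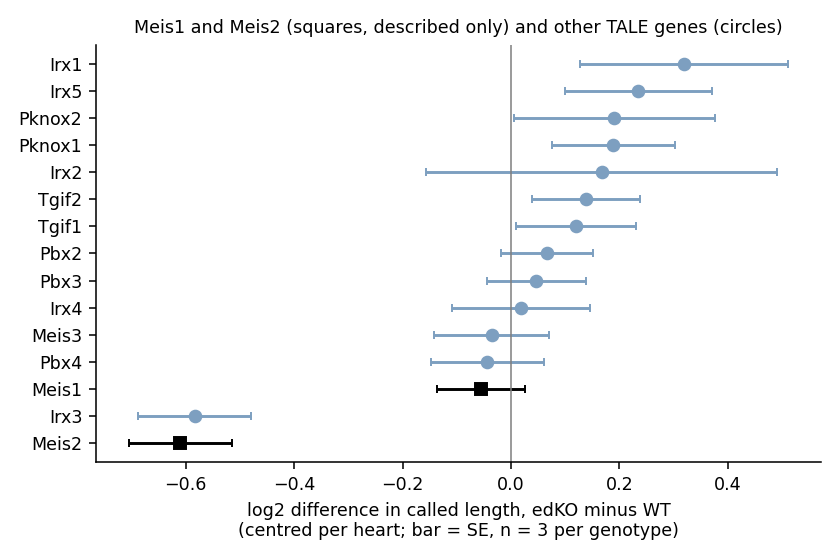
Centred log2 difference in called length (edKO minus WT, bar = SE, n = 3 per genotype) for Meis1 and Meis2 (squares, chosen on these values and not tested) and for the other TALE genes named in the text (circles). Meis2 (-0.61) and Irx3 (-0.58) lie at the low end, and the other genes drawn lie between -0.06 and 0.32.

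The cell cycle inhibitors and Hox genes tied to Meis1 were described next. Of 14 genes, 13 had enough called length, in 6 distinct windows. After adjustment over all loci, limma called 0 lower and 0 higher (background 0.185% and 0%). The median log2 difference was -0.60, a value set largely by neighbouring Hox genes that share the same regions. Hoxa3 had 2874, 5275 and 4302 bp in WT against 1024, 1480 and 3352 in edKO, and edKO 6 lay above WT 1, so the groups overlapped (log2 difference -1.02, SE 0.38, limma adjusted p = 0.609). The Hoxa3 difference was -0.60 without edKO 1 and -1.41 without edKO 6. Cdkn1a, the gene of the kinase inhibitor p21, had 6400, 6141 and 5557 bp in WT against 4473, 3836 and 7513 in edKO (log2 -0.14, SE 0.19, limma adjusted p = 0.913), and edKO 6 was the highest heart. The shared window of Cdkn2a and Cdkn2b had a log2 difference of 0.62 (SE 0.32, limma adjusted p = 0.788).

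Cardiac transcription factors were set beside Meis2 as genes of the same tissue. Of 12, 11 had enough called length, with a median log2 difference of -0.00. Among these, limma called 0 lower and 0 higher, where 0.185% and 0% of all tested loci were called. The smallest unadjusted p-values belonged to Tead1 (log2 -0.15, SE 0.09, limma adjusted p = 0.828) and Mef2a (-0.18, SE 0.13, limma adjusted p = 0.872).

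Markers of the cells in the heart were set beside the Meis2 values. Called length summed over 8 cardiomyocyte genes was 285 to 299 kb in WT and 224 to 304 kb in edKO, and over 8 fibroblast genes 49.8 to 87.8 kb and 64.5 to 70.4 kb. The windows of Myh6 and Myh7 overlap, as do those of Dcn and Lum, so regions in the overlap counted for both genes. Myh6 had 67403 bp and Myh7 63391 bp in WT 1, much of it shared. Over 8 genes of neural crest, neurons and Schwann cells, of which 2 had 0 bp in every heart, it was 39.4 to 44.4 kb in WT and 31.3 to 40.6 kb in edKO. Gene by gene, the median centred log2 difference was -0.0015 for cardiomyocyte markers (4 below 0, 4 above, among the latter Myh6 and Myh7 at 0.028 each). It was 0.23 for fibroblast markers (1 below, 7 above) and -0.10 for the 5 tested neural crest, neuron and Schwann markers (4 below, 1 above). The ranges overlapped between the genotypes for each of these lists and for the endothelial, smooth muscle, leukocyte, epicardial and erythroid lists. Of their tested genes, limma called 0 in either direction (background 0.185% lower and 0% higher). Whether the makeup of the hearts had a part in the Meis2 values was not tested.

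Loci whose 6 centred values ran most nearly parallel to those of the members were named by Pearson's r over the 6 hearts, as a description. For Meis2 they were Enox1 (r = 0.996), Gpam (0.995), Irgm2 (0.993), Dop1a (0.992) and Igf1 (0.987). Gpam encodes a glycerol-3-phosphate acyltransferase of triglyceride synthesis, and Igf1 a growth factor. Enox1 had 13738, 14554 and 11802 bp in WT against 8158, 6463 and 5965 in edKO, so that, as at Meis2, every edKO heart was below every WT heart. For Meis1 they were Acan (0.988), Rpl3l and Msrb1 (0.984 each, over the same regions), Ndufb10 (0.973) and Lpl (0.967), the last encoding lipoprotein lipase. Meis1 and Meis2 themselves had r = 0.522. All these points share the hearts and their lists, and any locus with a like split between the 2 groups has a high r with Meis2.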

How the data were processed

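Per the labels, H3K27ac ChIP-seq was run on 3 WT and 3 edKO hearts, each with an input sample; the inputs, which carry no list, were not used. The authors deposited 1 narrowPeak list per heart, on mm10. Its deposited positions (start, end, summit) were used for lengths, its fold enrichment, a ratio set by the authors, for percentiles within a list, and its deposited −log10 p-values and −log10 q-values for stricter or equal lists. The submitters' processing notes name cutadapt, BWA, SAMtools and MACS2, without versions or settings. The average depth the labels state is for the series, and depth per heart is unknown, so no counting interval is given.

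Entries sharing start and end were merged, and regions of different hearts were joined at 1 bp. Length per gene window (RefSeq GRCm38.p6, gene body and 50 kb on each side) was taken as log2(bp + 200), centred per heart on loci covered in all 6 hearts (edKO minus WT centre -0.11), and a locus needed a mean of at least 500 bp. limma 3.58.1 in R 4.3.3 (trend, robust, genotype only) tested all loci, with Benjamini-Hochberg adjustment at 0.05, and was tested on simulated data. With 3 hearts a group, an exact two-sided p for 1 region is at least 0.1, so none was tested. Folds on this scale understate changes at short lengths. Python 3.11.15, numpy 2.4.6, pandas 2.3.3 and matplotlib 3.10.9 were used.

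The members and lists were chosen with earlier results of these data known. Named are Meis1 and Meis2, the other TALE genes, in other lists the called genes or else the 2 with the smallest unadjusted p, the 5 loci most highly correlated with each member, and regions over a gene end, the widest ones and those called in all hearts of 1 genotype alone. A few genes that this would name are not reported here. Other regions and genes named were chosen after their values were seen.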

Additional observations from a re-analysis of the deposited data

How the results depend on the processing

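The log2 difference of Meis2 stayed between -0.72 and -0.51 over 17 alternative settings, 16 planned and 1 (500 bp around each summit) chosen after seeing the data. That of Meis1 lay between -0.16, without centring, and 0.01. Of the 31 loci lower in edKO, the count became 15 with 10 kb windows, 11 with gene bodies alone and 11 with 500 bp around each summit, and leaving out 1 heart gave 5 (without WT 3 or WT 4) to 35 (without edKO 6), with 16 without WT 1, 14 without edKO 1 and 10 without edKO 3. Meis2 regions called in all WT hearts and no edKO heart numbered 2, or 4 where a heart had to cover 50% of the joined region, and 1 to 6 with 1 heart left out. For Meis1 the count was 0, or 0 to 1 with 1 heart left out.

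Heart numbers 1 and 3 occur in both genotypes, but nothing says that they pair hearts, and deviations across loci correlated at 0.19 and 0.05. With the number as a replicate block, 213 loci were lower and 1 higher, 10 of the lower ones on the list of cell cycle inhibitors and Hox genes, all Hox genes that share regions with their neighbours (Hoxa3 -1.31, limma adjusted p = 0.0052, and Hoxb3 -1.002, 0.021), Meis2 stood at -0.52, Pbx4 at 0.054 and Irx2 at -0.086.

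Signs turned for 10 of 19 other genes that were followed, none past the threshold. With 10 kb windows, log2 differences were 0.30 for Meis3, -0.023 for Pbx2, 0.057 for Pbx4 and 0.36 for Cdkn1a. With gene bodies alone they were 0.29 for Meis3, -0.061 for Pbx2, 0.69 for Pbx4, 0.14 for Irx3 and 0.35 for Cdkn1a. Without centring they were -0.040 for Pbx2, -0.059 for Pbx3 and -0.088 for Irx4. With lists of equal length they were -0.025 for Pbx3, 0.014 for Pbx4 and 0.043 for Cdkn1a, and with stricter lists 0.031 for Pbx4. With 500 bp around each summit they were -0.018 for Pbx3, -0.097 for Tgif1 and -0.074 for Tgif2. With 1 heart left out, Pbx4 ranged from -0.088 to 0.040 (without WT 4), Irx2 from -0.086 (without edKO 6) to 0.49, Irx4 from -0.10 (without WT 3) to 0.16 and Cdkn1a from -0.37 to 0.032 (without edKO 1). The cause of these moves was not tested. The correlations of the loci most like each member moved too, to 0.157 at the lowest for Meis2 (Dop1a, 10 kb windows) and -0.038 for Meis1 (Msrb1, gene bodies alone). Depth per heart is unknown and limits every statement on a missing call.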
